A study of Mus musculus with 6 samples.

Results

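Heat shock proteins and other chaperones were measured in mouse spleen by 106 array probes for 88 genes, out of 35587 probes (18069 genes with a probe of a single symbol) on the array. The probes were chosen by name: those with a single gene symbol of the Hsp families, the Dnaj families a, b and c, the chaperonin subunits Cct2 to Cct8, Tcp1, the Bag genes 1 to 6, Hsf1 or Hsf2. Hsf1 and Hsp90ab1 had no such probe, and that of Dnajc24 was left out because it lies in the last rows of the array, which were not analysed here. Total RNA came from spleens of female BALB/c mice on postnatal day 21. There were 3 control animals and 3 animals that had received 0.1 mM lead (Pb) from gestation day 8 on, with 1 single-colour (Cy5) CodeLink array per animal. How the lead was given, and whether animals shared a litter, is not given in the sources used here, so the p-values measure the spread between these samples. The question the design puts to these genes is whether developmental exposure to lead changed their RNA in the spleen.

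Chaperones bind proteins that are not yet folded or have lost their fold and help them reach or regain it. Hsp70 proteins do so in cycles of ATP hydrolysis that J-domain (Dnaj) proteins start and exchange factors such as the Bag proteins end. Hsp90 acts later, on clients such as kinases and steroid receptors, and the ring-shaped chaperonins enclose a single protein at a time. Heat, heavy metals and other stresses that unfold proteins activate the transcription factor HSF1, which induces the stress-responsive members. Misfolding in the endoplasmic reticulum instead turns on that compartment's own chaperones, which antibody-secreting plasma cells of the spleen use heavily.

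Levels are given as log2 intensities relative to the array median, so that 0 is the median of an array, and differences are Pb minus control on that log2 scale. All come after correction for position on the array. Pb replicate 2 needed it most: the median of its array rows, in bands of about 20 rows, ran from -2.52 to 2.37 relative to the controls before correction and from -0.065 to 0.208 after it. Its correlation with the control mean across probes rose from 0.674 to 0.933, against 0.965 for Pb replicate 1 after correction. The correction removes each array's smooth deviation from an average that includes the controls. This rise and the flatter bands are therefore partly built in. Within single array rows the median correlation of Pb replicate 2 was 0.85 before correction. Single control arrays, which are noisier than their mean, correlated with each other at 0.94 to 0.945 before correction. The scatter of Pb replicate 2 stayed wider after correction (median absolute deviation 0.59, against 0.24 to 0.30 on the other 4 arrays). Deviations were taken from an average over those other 4 arrays. Each of the 4 is thus part of its own reference, which makes its value smaller, and Pb replicate 2 is not. Pb replicate 3 did not follow the probes (r = 0.045 to 0.048 with the controls) and was left out. The comparison is therefore 3 control arrays against 2 Pb arrays. Markers of the spleen's B cells (15 of 16 probes), T cells (13 of 14), red pulp macrophages (12 of 12) and erythroid cells (14 of 14) passed the filter on dim probes, and those of testis germ cells mostly did not (5 of 12). That filter kept 24464 of the 34949 probes in the array rows used. Of the germ cell probes kept, Odf1 was bright on all 5 arrays, at 6.40 to 7.28.

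**Figure D1:**
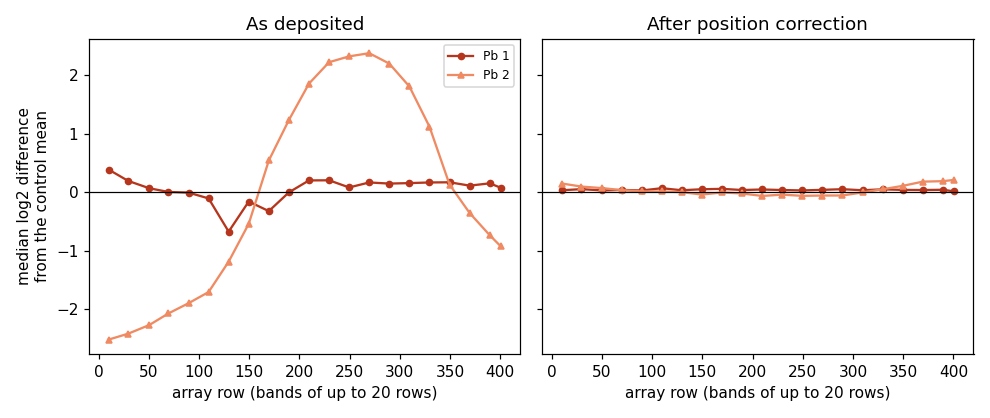
Median log2 deviation from the controls in bands of array rows (x axis, array row; y axis, log2 units) for Pb replicates 1 and 2 before and after the position correction. Before correction Pb replicate 2 ran from -2.52 to 2.37 across the array. Pb replicate 1 had a dim band of -0.674 in rows 120 to 139. After correction the bands of Pb replicate 1 lay at 0.014 to 0.067. Those of Pb replicate 2 kept a smaller trend, from -0.065 in rows 200 to 219 to 0.147 in rows 1 to 19 and 0.208 in rows 400 to 401.

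No chaperone probe differed between Pb and control spleens at an adjusted p under 0.05. The filter on dim probes left 93 member probes of 78 genes, and limma's moderated test with Benjamini-Hochberg adjustment over all 24464 probes tested gave them adjusted p-values of 0.63 to 0.995. Across the array the same test called 18 probes, 0.0736% of those tested, all of them higher in Pb. At an unadjusted p under 0.05 there were 5 member probes, or 5.38%, against 7.03% of all probes. Of these 5, Dnajb11 and Tcp1 were higher in Pb (3.89% of all probes passed in that direction) and Hsf2, Dnaja2 and Bag4 were lower (3.15%). The highest control was exceeded on both Pb arrays for 10 of the 106 member probes (12.6% of all probes), and 7 were below the lowest control on both (12.1%). These shares are near or under the background.

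The differences themselves were small. The median over the tested members was 0.06, against 0.01 over all probes tested, with 57 member probes higher in the Pb mean and 36 lower. A difference under 0.5 in size was found for 76 of the 93 (81.7%, against 82.8% of all probes), and Dnajc13 (1.02) and Bag3 (-1.27) exceeded 1. In data simulated on these 5 arrays, a true log2 change of 1 reached an adjusted p under 0.05 in 14% of probes and a change of 3 in 100%. At an unadjusted p under 0.05 (limma) a change of 1 passed in 82%, one of -1 in 72.9% and no change in 7.42%. The simulation changed few probes and gave all probes of an array the same noise spread, unlike the real probes. In that setting changes of about 2-fold were mostly not detectable by the adjusted test. The count of calls changed most without Pb replicate 1, when 8 member probes and 2791 of all probes were called. In that fit Pb replicate 2 is the only Pb array and the spread comes from the controls alone, although the scatter of that array was wider, so its p-values are too small and describe that array. Without Pb replicate 2, 17 probes and no member were called. Position correction decided many directions: without it 16 of 39 named member probes changed sign, and with a surface over position that ignores signal level 7 of 40. Without control replicate 1, 2 or 3 the count of calls over all probes was 5, 4 and 7, and no member probe was among them.

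**Figure D2:**
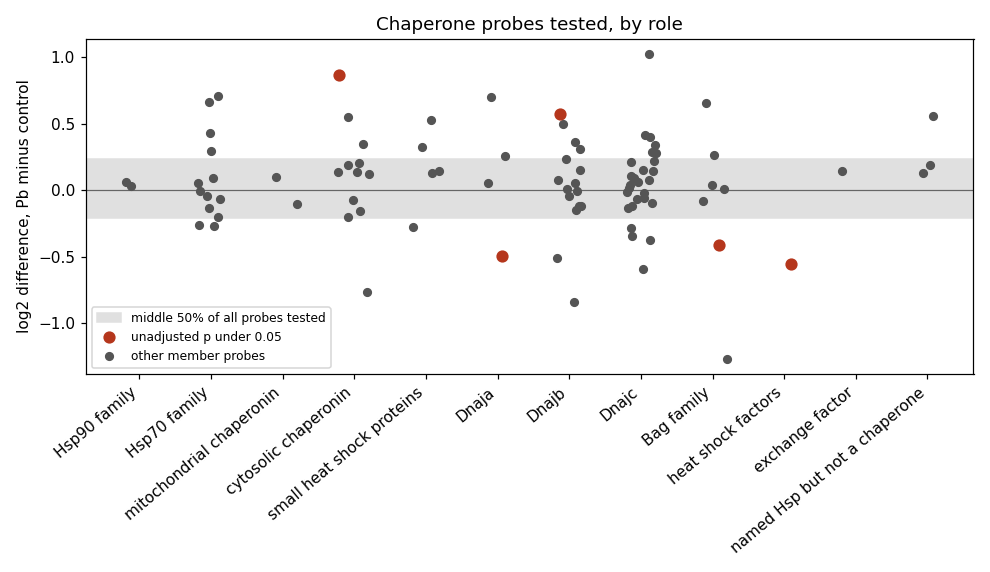
Log2 difference, Pb minus control (y axis), of each of the 93 tested chaperone probes, grouped by role (x axis); red points are the 5 probes at an unadjusted p under 0.05 and the grey band holds the middle 50% of all probes tested. Most points lie inside or close to the band, and the outermost are Dnajc13 at 1.02 and Bag3 at -1.27.

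No stress-inducible gene passed the test, and for Hspa1a, Hspa1b and Dnajb1 both Pb arrays lay inside the control range. Hspa1a and Hspa1b encode the inducible Hsp70, and stand for the heat shock response more directly than other members do. Their upstream sequences are shown because they are near copies: over the 250 bases before the transcription start, 247 (98.8%) were identical. Capitals mark GAANNTTC, a pair of inverted heat shock units of the kind HSF1 binds in longer arrays. It was searched on both strands and reads the same on both.
Hspa1a, chr17:34972157-34972406, minus strand: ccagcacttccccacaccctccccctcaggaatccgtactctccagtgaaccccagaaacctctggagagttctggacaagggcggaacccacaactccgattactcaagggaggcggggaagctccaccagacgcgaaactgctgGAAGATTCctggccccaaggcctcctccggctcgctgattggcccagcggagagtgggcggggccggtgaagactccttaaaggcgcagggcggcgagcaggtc
Hspa1b, chr17:34959239-34959488, minus strand: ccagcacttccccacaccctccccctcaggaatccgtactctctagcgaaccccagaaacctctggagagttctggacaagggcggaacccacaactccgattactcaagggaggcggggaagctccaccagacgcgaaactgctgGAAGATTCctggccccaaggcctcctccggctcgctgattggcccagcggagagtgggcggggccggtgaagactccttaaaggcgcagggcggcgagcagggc
These and all sequences below are RefSeq promoter sequences of mouse build GRCm38.p6, written from 5′ to 3′ on the strand of the gene, and each stretch of 250 bases ends at the base before the transcription start. The promoter table held 73 of the 88 member genes. The pair of units occurred in this window in 13 of the 73 genes (17.8%), against 7.73% of all 27025 genes in the table, and a match of letters is no evidence of binding.

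The Hspa1a probe read 1.24, 1.62 and 1.67 in control replicates 1, 2 and 3 and 1.34 and 1.27 in Pb replicates 1 and 2. Both Pb arrays fell inside the control range, with a difference of -0.20 (SE 0.20, 95% interval -0.69 to 0.29, unadjusted p = 0.357). The Hspa1b probe read 0.59, 1.23 and 2.35 in the controls and 0.99 and 1.27 in Pb. Here the controls alone spanned more than 1.5 log2 units and both Pb arrays lay within them (difference -0.26, SE 0.50). The coding sequences of these neighbouring genes are also known to be nearly the same, so the probes may not separate their transcripts.

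Dnajb1, the J-domain partner of inducible Hsp70, read 3.97, 4.41 and 4.81 in the controls and 4.08 and 4.42 in Pb, again inside the control range (difference -0.15, SE 0.28). Hsp90aa1, the stress-inducible cytosolic Hsp90, read 4.93, 4.83 and 5.33 in the controls and 4.67 and 5.51 in Pb. Its Pb arrays lay on either side of the controls, and the difference was 0.06 (SE 0.30, 95% interval -0.68 to 0.81). Dnaja1, a J-domain partner of Hsp70 and Hsp90, read 5.08, 5.56 and 5.50 against 5.34 and 5.53 (difference 0.05, SE 0.22). Hspb1, the small heat shock protein Hsp27 that holds unfolded proteins without ATP, read 2.79, 2.86 and 2.94 against 2.71 and 3.27 (difference 0.13, SE 0.22). The directions of Hspa1a, Hspa1b, Dnajb1 and Hspb1 turned without the position correction, and those of Hsp90aa1 and Dnaja1 did not. Without it the differences were 0.69 for Hspa1a, 1.09 for Hspa1b, 0.29 for Dnajb1, 1.54 for Hsp90aa1, 0.35 for Dnaja1 and -0.996 for Hspb1, with SEs of 0.66 to 0.84. With a surface that ignores signal level Hsp90aa1 and Dnaja1 each gave -0.14 and Hspb1 -0.42. The median over all probes was then -0.177.

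Hsph1, the Hsp110 protein that serves as exchange factor for Hsp70, had the largest positive difference among the tested probes of the Hsp70 family. It read -1.62, -1.05 and -0.59 in the controls and -0.68 and -0.06 in Pb. Pb replicate 1 fell inside the control range, and the difference of 0.71 (SE 0.35, unadjusted p = 0.0895) did not pass the test. Bag3, an HSF1 target that links Hsp70 to autophagy, read 0.33, 0.12 and 0.45 in the controls, 0.23 in Pb replicate 1 and -2.16 in Pb replicate 2. Its difference of -1.27 (SE 0.65, unadjusted p = 0.097) rests on Pb replicate 2, and Pb replicate 1 lay inside the control range. Pb replicate 2 alone gave -2.48 (adjusted p = 0.00424 by limma, with the spread from the controls only), and Pb replicate 1 alone -0.07.

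As a set, 14 probes of genes known to be heat-inducible were tested, a grouping made after the values had been seen. Their median difference was -0.02. For 1 probe (a Dnajb4 probe, described below) both Pb arrays lay below all controls (7.14%, against 12.8% of all probes tested). For 0 probes both lay above all controls (against 13.7%). For 4 more (Hsp90aa1, Hspb1, Hspd1 and Hspe1) Pb replicate 1 was below and Pb replicate 2 above all controls (28.6%, against 8.53%). The controls themselves were spread: their median SD was 0.25 in this set and 0.16 over all probes tested. Control replicate 1 was the lowest control for 10 of the 14 (71.4%, against 37.2% of all probes), and also for 10 of 14 before position correction (34.4% of all probes). Control replicate 3 was the highest for 9 of 14 (64.3%, against 30.3%), but before correction for only 6 (42.9%, against 39.1%). Hspb1 and Hspa1b are examples in which both held. Pb replicate 1 lay below the control mean for 12 of the 14 (85.7%, against 46.4% of all probes) and Pb replicate 2 above it for 10 (71.4%, against 49.5%).

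Genes that respond to handling and tissue dissociation were looked at beside these. Of 15 immediate early genes, 14 were tested, none was called by limma, and 3 (21.4%, against 7.03% of all probes) had an unadjusted p under 0.05, 1 higher and 2 lower in Pb. On both Pb arrays 4 of the 14 exceeded every control (28.6%, against 13.7% of all probes tested). A further 3 were under every control (21.4%, against 12.8%). Fos had the smallest p, reading -0.16, 0.44 and -0.48 in the controls and -0.93 and -1.31 in Pb (difference -1.05, unadjusted p = 0.0137, adjusted p above 0.05). The summed level of the list was 6.02 to 6.14 in the controls and 6.05 to 6.06 in Pb on the log2 scale, a sum in which genes going opposite ways cancel. Their part in the chaperone values was not tested.

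**Figure D3:**
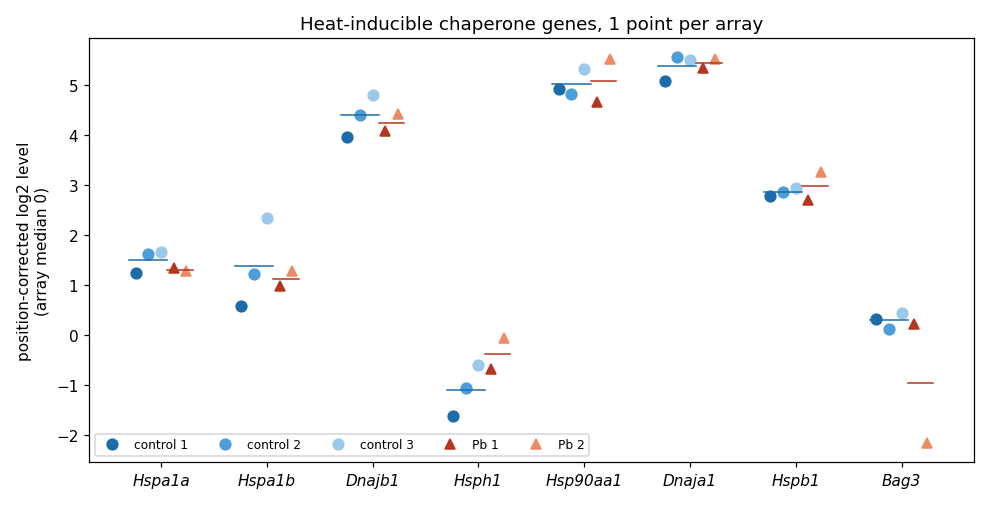
Position-corrected log2 level (y axis, array median 0) of 8 heat-inducible chaperone genes (x axis) on each array; circles are the 3 controls, triangles the 2 Pb arrays, and the short lines the group means. The Pb arrays of Hspa1a, Hspa1b and Dnajb1 fall inside the control range, and the single low point is Bag3 in Pb replicate 2 at -2.16.

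The chaperones of the endoplasmic reticulum gave a median difference of 0.15 over 12 probes of 8 genes, and 1 of them, Dnajb11, had an unadjusted p under 0.05. The sequences of Hspa5, Hsp90b1 and Dnajc3 are shown because each carries the endoplasmic reticulum stress response element, CCAAT and CCACG with 9 bases between them, searched on both strands (capitals). They were the only 3 of the 73 member genes with it in this window (4.11%, against 0.13% of all genes). Hsp90b1 had 2 matches, the second of them on the opposite strand.
Hspa5, chr2:34771840-34772089, plus strand: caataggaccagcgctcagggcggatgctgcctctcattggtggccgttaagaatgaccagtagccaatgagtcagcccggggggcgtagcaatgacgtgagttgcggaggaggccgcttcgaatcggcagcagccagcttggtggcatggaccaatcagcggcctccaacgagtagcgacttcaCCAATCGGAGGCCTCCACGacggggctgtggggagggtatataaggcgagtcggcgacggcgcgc
Hsp90b1, chr10:86705445-86705694, minus strand: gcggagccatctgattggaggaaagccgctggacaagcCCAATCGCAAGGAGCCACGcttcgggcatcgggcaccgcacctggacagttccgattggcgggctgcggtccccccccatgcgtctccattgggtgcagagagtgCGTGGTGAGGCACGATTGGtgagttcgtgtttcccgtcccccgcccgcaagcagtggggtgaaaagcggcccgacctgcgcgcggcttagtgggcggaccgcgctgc
Dnajc3, chr14:118937682-118937931, plus strand: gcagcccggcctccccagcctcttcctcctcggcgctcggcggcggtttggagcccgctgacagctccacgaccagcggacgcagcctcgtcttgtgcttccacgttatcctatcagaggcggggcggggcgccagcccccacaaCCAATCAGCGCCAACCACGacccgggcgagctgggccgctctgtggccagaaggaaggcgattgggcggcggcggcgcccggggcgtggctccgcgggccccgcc
After position correction the differences of these 3 genes were under 0.3 in size and did not all have the same sign. Without it they were -1.88 for Hspa5, -1.77 for Hsp90b1 and 1.91 for Dnajc3, and with the surface that ignores level -0.77, -0.64 and 0.30. Hspa5 (BiP), the Hsp70 of the endoplasmic reticulum and the usual readout of its stress response, read 5.73, 5.83 and 5.95 in the controls and 5.76 and 5.64 in Pb (difference -0.14, SE 0.17, 95% interval -0.56 to 0.29). Pb replicate 2 was below every control and Pb replicate 1 among them. Hsp90b1 (Grp94), the Hsp90 of that compartment, read 5.16, 5.74 and 5.26 against 5.42 and 5.42, inside the control range (difference 0.03, SE 0.23). Dnajc3 (p58IPK), a co-chaperone of BiP, read 0.29, -0.35 and -0.11 against 0.30 and 0.15. Its Pb arrays overlapped the controls, with a difference of 0.28 (SE 0.23).

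Dnajb11 (ERdj3), a luminal J-domain protein that hands substrates to BiP, had the smallest p of all chaperone probes. It read 3.36, 3.12 and 3.36 in the controls and 3.76 and 3.94 in Pb, so the groups did not overlap, with a difference of 0.57 (SE 0.18, 95% interval 0.13 to 1.01, unadjusted p = 0.0196, adjusted p = 0.63 by limma). The 44 tested probes around it on the array, within 3 rows and 5 columns, had a median difference of 0.04. Without position correction the value was -0.45, and with a surface that ignores signal level it was 0.10, so its direction depends on that step. Dnajb9 (ERdj4), another BiP partner and a target of the stress pathway, had one probe reading 0.85, 0.54 and 0.63 in the controls and 0.76 and 1.58 in Pb (difference 0.50, SE 0.28; -0.92 without position correction). Its second probe was under the filter and differed in sign (-0.60). The 3 probes of Hspa13 (Stch), a short Hsp70 of microsomes, differed by 0.06, 0.66 and 0.43. Both Dnajc1 probes and both Dnajc10 probes (ERdj5, a reductase) differed by 0.06 to 0.15.

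Pb replicate 2 lay above the control mean for 11 of these 12 probes (91.7%, against 49.5% of all probes) and Pb replicate 1 below it for 4 (33.3%, against 46.4%). Among 26 probes of 23 further folding genes of this compartment, none was called by limma and 1 had an unadjusted p under 0.05. Their median difference was 0.07, and on both Pb arrays 7 (26.9%) exceeded every control, against 12.6% of all probes, and 1 was under every control, against 12.1%. Fkbp2, a prolyl isomerase, had the smallest p (1.25, 1.15 and 1.35 in the controls against 1.66 and 2.84 in Pb, difference 1.00, unadjusted p = 0.0284). Manf, a secreted protein induced by stress of this compartment, read 3.21, 3.33 and 3.24 against 3.57 and 3.74 (difference 0.39, unadjusted p = 0.0586).

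Most marker probes of the exocrine pancreas moved with the groups. Of 20 such probes 16 were higher on both Pb arrays than on any control (80%, against 12.6% of all probes). Among them were 12 of the 18 probes called on the whole array. Several were near the bottom of the control arrays and passed the filter on dim probes through the Pb arrays, so their differences have no exact size. Over all 20 the median deviation from the control mean was 2.97 in Pb replicate 1 and 3.81 in Pb replicate 2. The summed level of the list was 4.57 to 4.74 on the controls and 7.71 to 8.09 on the Pb arrays. Of the defining transcription factors, the Ptf1a and Bhlha15 probes were under the filter on dim probes. Ptf1a went the other way from most of the list, with both Pb arrays below every control (difference -0.73). Bhlha15 differed by 0.91, and its groups overlapped. Acinar cells are rich in endoplasmic reticulum, and their part in the values above was not tested. More such cells and more RNA per cell cannot be told apart in bulk tissue, here and for every other cell marker.

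No chaperonin probe was called, and for 7 of 14 the 2 Pb arrays lay outside the controls in opposite directions. Hspd1 (Hsp60) and Hspe1 (Hsp10) form the mitochondrial chaperonin and its lid, and share one promoter: their starts at positions 55087932 and 55088148 of chromosome 1 point away from each other, with 215 bases between them. The stretch below is shown because it holds the heat shock element of 3 units (GAA, TTC and GAA with 2 bases between neighbouring units), matched once on each strand with the matches overlapping (capitals). Both strands were searched, and this element contains the pair of units above. Dnajb6, which keeps polyglutamine proteins soluble, was the other member gene with this element, giving 3 of 73 genes (4.11%) against 0.514% of all genes in the table.
Hspe1, chr1:55088051-55088080, plus strand: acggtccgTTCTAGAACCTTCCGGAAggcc
Dnajb6, chr5:29735844-29735873, plus strand: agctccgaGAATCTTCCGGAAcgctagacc
Hspd1 read 4.59, 4.78 and 4.72 in the controls, 4.01 in Pb replicate 1 and 5.19 in Pb replicate 2, and the difference of means was -0.10 (SE 0.35). Hspe1 read 6.10, 6.41 and 6.27 in the controls and 5.91 and 6.81 in Pb (difference 0.10, SE 0.30). For both genes Pb replicate 1 was below and Pb replicate 2 above every control. Both differences were negative with the surface that ignores level, at -0.81 for Hspd1 (unadjusted p = 0.005) and -0.49 for Hspe1 (unadjusted p = 0.0459), and without correction, at -1.39 and -0.50. Without Pb replicate 2 they were -0.69 and -0.35. Dnajb6 did not share this: its probes differed by 0.23 (SE 0.18) and -0.04 (SE 0.20).

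The cytosolic chaperonin, the ring also called TRiC that folds actin and tubulin, gave the same split in Cct2, Cct6a, Cct7, Cct8 and 1 of 3 Cct4 probes. Cct2 read 2.98, 3.25 and 3.21 in the controls and 2.86 and 3.83 in Pb (difference 0.20, SE 0.31). Cct7 read 4.06, 4.13 and 4.21 in the controls and 3.86 and 4.67 in Pb (difference 0.13, SE 0.27). Over both chaperonins 7 of 14 probes (50%) had Pb replicate 1 below and Pb replicate 2 above all controls, against 18 of the 93 members (19.4%) and 8.53% of all probes tested. That split also held for 3 of 7 Bag probes (42.9%) and 5 of 14 probes of erythroid markers (35.7%). Among co-chaperones of Hsp90 and Hsp70 outside the name rule it held for 5 of 18 probes (27.8%). It held for 0 of 13 tested probes of the Hsp70 family and 0 of 12 of the endoplasmic reticulum. The opposite split, Pb replicate 1 above and Pb replicate 2 below, held for 3 members, against 9.81% of all probes. The count moved with the correction: with a surface that ignores signal level, and without position correction, it held for 1 chaperonin probe in each case, and the members then had 7 (7.45%, against 4.95%) and 20 (22%, against 15.2%). A grouping of cell-cycle genes made after the values had been seen held the same split in 7 of 15 probes (46.7%), with a summed level of 9.95 to 10.09 in the controls, 9.86 in Pb replicate 1 and 10.06 in Pb replicate 2. Erythroid markers had a median deviation from the control mean of -0.14 in Pb replicate 1 and 0.38 in Pb replicate 2, and of 14 tested none was called or had an unadjusted p under 0.05 (limma). The part of either in the split was not tested.

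**Figure D4:**
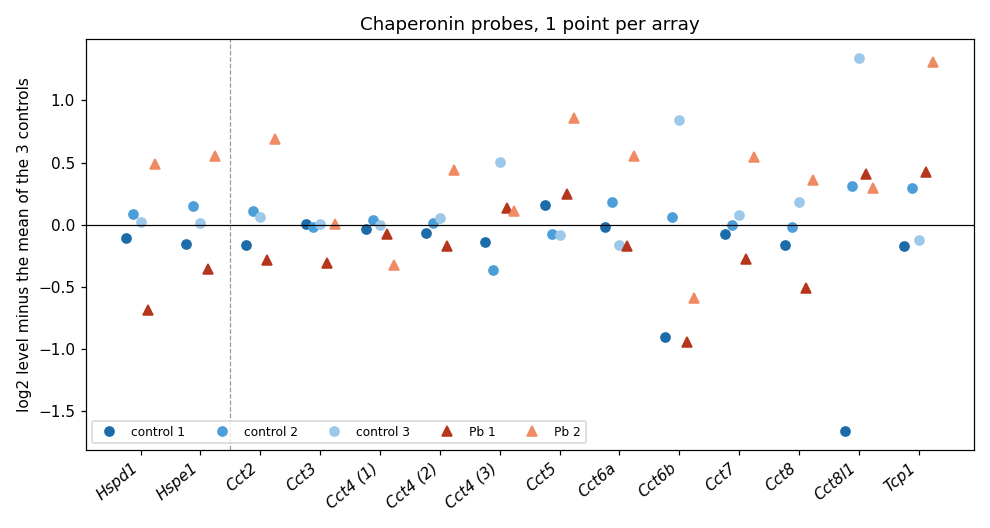
Deviation of each array from the control mean (y axis, log2 units) for the 14 probes of the mitochondrial and cytosolic chaperonins (x axis); blue circles are the 3 controls and red triangles the 2 Pb arrays. For 7 probes, among them Hspd1 and Hspe1, Pb replicate 1 lies below and Pb replicate 2 above every control.

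Tcp1, the alpha subunit of the cytosolic chaperonin, was the exception among its subunits at an unadjusted p. It read 0.96, 1.43 and 1.01 in the controls and 1.55 and 2.44 in Pb, without overlap (difference 0.87, SE 0.31, 95% interval 0.11 to 1.62, unadjusted p = 0.0313, adjusted p = 0.63). The 20 tested probes around it had a median difference of 0.20. Without position correction the value was -0.20, and with the surface that ignores level 0.19. Pb replicate 2 alone gave 1.26 (adjusted p = 0.0328, with the spread from the controls only) and Pb replicate 1 alone 0.42. Cct5 was the other subunit whose Pb arrays both lay above the controls, reading 3.56, 3.33 and 3.32 against 3.65 and 4.26 (difference 0.55, SE 0.24, unadjusted p = 0.0586). Cct3 (difference -0.15) and the remaining Cct4 probes (-0.20 and 0.13) did not follow Tcp1. The lowest subunit was Cct6b, a form best known from testis, at -0.77 (SE 0.49), and its 3 controls spanned -1.90 to -0.16.

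Of the other Hsp70 proteins, Hspa9 (mortalin), which pulls proteins into the mitochondrion, read 4.59, 5.03 and 4.93 in the controls and 4.41 and 4.75 in Pb, the lowest difference among the tested probes of the family at -0.26 (SE 0.22). With the surface that ignores level it was -0.80 (unadjusted p = 0.0156), and without correction -1.83. Hspa4 (Apg2), an exchange factor of the Hsp110 type, read 3.67, 3.76 and 3.74 against 3.92 and 4.12. Its groups did not overlap, and the difference was 0.30 (SE 0.17, unadjusted p = 0.131). The constitutive Hspa8 (Hsc70) could not be judged, because its only probe was under the filter, reading -2.60, -2.63 and -4.76 in the controls and -2.42 and -2.81 in Pb. Over the 13 tested probes of the Hsp70 family the median difference was -0.01.

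Among the J-domain proteins of classes a and b, Dnaja2, a constitutive partner of Hsc70, was lower in Pb at an unadjusted p. It read 3.61, 3.83 and 3.96 in the controls and 3.37 and 3.25 in Pb, without overlap (difference -0.49, SE 0.19, 95% interval -0.95 to -0.04, unadjusted p = 0.0382, adjusted p = 0.63). The 49 tested probes around it had a median difference of -0.16. Without position correction the difference was 0.00 (SE 0.64). Dnaja3 (Tid1), its mitochondrial relative, had the highest difference of class a at 0.70 (SE 0.42). This came from Pb replicate 2 alone, at 1.07, while Pb replicate 1 at -0.38 lay within the controls (-0.46 to -0.21). Pb replicate 2 alone gave 1.42 with an adjusted p under 0.05, and without position correction the sign turned (-0.65). Dnajb4, a heat-inducible relative of Dnajb1, had 2 probes with differences of -0.12 (SE 0.19) and -0.50 (SE 0.21, unadjusted p = 0.0538). Dnajb13, a protein of sperm flagella, had the lowest value of class b at -0.84 (SE 0.59), while its second probe gave 0.36 (SE 0.27).

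The large class c, in which the J domain sits in otherwise unrelated proteins, had 27 tested probes of 21 genes, none at an unadjusted p under 0.05, with a median difference of 0.06. Dnajc13 (RME-8), a protein of endosomes, was the highest of the tested probes. It read -2.81, -1.51 and -0.67 in the controls and -0.67 and -0.61 in Pb, and the difference of 1.02 (SE 0.58, unadjusted p = 0.129) came with controls that were themselves more than 2 log2 units apart. Without position correction it was 2.48. Dnajc16 was the lowest at -0.59 (SE 0.41), with Pb replicate 1 at 1.24 just above the controls and Pb replicate 2 at -0.19 far below them. Without position correction it was -2.42, with the surface that ignores level -1.19, and from Pb replicate 2 alone -1.34 with an adjusted p under 0.05. Dnajc4 read 2.45, 2.66 and 2.61 against 2.17 and 2.23, the 1 probe of the class whose Pb arrays both lay below all controls (difference -0.37, SE 0.17, unadjusted p = 0.0717).

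Hsf2, the heat shock factor best known from development and germ cells, was lower in Pb at an unadjusted p. It read -0.15, 0.17 and -0.31 in the controls and -0.65 and -0.65 in Pb, without overlap (difference -0.55, SE 0.20, 95% interval -1.05 to -0.06, unadjusted p = 0.0343, adjusted p = 0.63). Without position correction the difference was 0.47, so its direction depends on that step. The 44 tested probes around it on the array had a median difference of -0.34, which is in the same direction. A second Hsf2 probe, under the filter, differed by -0.59.

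In the Bag family, Bag4 (SODD), an inhibitor of signalling from death receptors, was lower. It read 0.21, 0.08 and 0.13 in the controls and -0.35 and -0.20 in Pb, without overlap (difference -0.41, SE 0.17, unadjusted p = 0.0492, adjusted p = 0.63). Its 42 tested neighbours had a median difference of 0.32, opposite in direction. With the surface that ignores level Bag4 gave -0.69. Bag1, the founding Hsp70 exchange factor of the family, was the highest at 0.65 (SE 0.33, unadjusted p = 0.0939): it read 3.47, 3.41 and 3.15 in the controls, 3.47 in Pb replicate 1 and 4.53 in Pb replicate 2. Pb replicate 1 was thus level with the controls, and Pb replicate 2 alone gave 1.23 with an adjusted p under 0.05. The sign turned without position correction (-1.21) and with the surface that ignores level (-0.11). Bag6 was the 1 Bag probe with both Pb arrays above the controls (difference 0.27, SE 0.18).

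Small heat shock proteins had 5 tested probes with differences of -0.28 (Hspb6, a muscle-rich form) to 0.53 (Hspb8, the partner of Bag3), none at an unadjusted p under 0.05. Hspb3 and Hspb7, forms of heart and skeletal muscle, were under the filter. Hspbp1, an exchange factor of Hsp70, differed by 0.14 (SE 0.21). The name rule also took in genes that are no chaperones: perlecan (Hspg2), a heparan sulfate proteoglycan of basement membranes, differed by 0.13 and 0.19 at its 2 probes, and Hspbap1, named for binding Hsp27, by 0.56 (SE 0.33).

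Probes of one gene did not always move alike. Of the 15 member genes with several probes, 5 had probes of opposite sign: Cct4, Dnajb6, Dnajb9, Dnajb13 and Dnajc12 (0.21 and -0.29). None of these probes reached an unadjusted p under 0.05.

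The pathway around the members gave no call either, in any of 5 lists of related folding genes outside the name rule. Of 18 probes for co-chaperones of Hsp90 and Hsp70, none had an unadjusted p under 0.05, the median difference was -0.05, and the smallest p was that of Rpap3, which recruits Hsp90 to assemble RNA polymerase (difference -0.54, unadjusted p = 0.0506). The co-chaperones Stip1 (0.00), Cdc37 (-0.10) and Fkbp4 (-0.15) were within 0.2 of no difference. Others were not, among them Ahsa1 (-0.23), Ptges3 (-0.26), Ppid (-0.27) and Stub1 (0.26). Pb replicate 1 lay below the control mean for 16 of the 18 probes (88.9%, against 46.4% of all probes tested). Pb replicate 2 lay above it for 12 (66.7%, against 49.5%). Of 13 probes for prefoldin and tubulin folding, which act beside the cytosolic chaperonin, Tbca alone had an unadjusted p under 0.05, reading 2.50, 2.67 and 2.58 against 2.96 and 3.50 (difference 0.65, unadjusted p = 0.0243). Of 12 tested probes for mitochondrial chaperones and proteases, Afg3l2, a protease of the inner membrane, did so at -0.52 (unadjusted p = 0.0406), while its second probe gave 0.47. Of 9 tested probes for crystallins, ubiquilins and other factors, none did, and Cryaa had the smallest p (difference -0.32, unadjusted p = 0.125). Both Pb arrays exceeded every control for 4 of the 13 prefoldin and tubulin folding probes (30.8%, against 13.7% of all probes tested). The shares were 5.56% for the co-chaperones, 8.33% for the mitochondrial list and 0% for the last list. Below every control were 15.4%, 16.7%, 16.7% and 22.2% of these 4 lists, against 12.8%.

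Of cell markers other than those of the exocrine pancreas, none of the tested probes for B cells (15), T cells (13), red pulp macrophages (12), neutrophils (12), muscle (12) or testis germ cells (5) was called by limma. At an unadjusted p under 0.05 there were Cd3e, part of the T cell antigen receptor (1.55, 1.32 and 1.52 in the controls against 2.18 and 2.18 in Pb, difference 0.72), and Ms4a3, a gene of granulocyte precursors (difference 0.77, both Pb arrays above the controls). These were 7.69% of the T cell and 8.33% of the neutrophil probes tested, and 0% in the other 4 lists, against 7.03% of all probes. The 13 tested T cell probes had a median difference of -0.04. On both Pb arrays 1 was above every control (7.69%, against 13.7% of all probes tested) and 2 were below (15.4%, against 12.8%). The second Ms4a3 probe, under the filter, differed by 0. Neutrophil markers had a median difference of 0.31. Their median deviation from the control mean was 0.80 in Pb replicate 1 and -0.02 in Pb replicate 2, and their summed level was 9.41 and 8.41 on these arrays, against 8.40 to 8.85 on the controls. The part of these cells in the chaperone values was not tested.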

How the data were processed

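Values were the authors' deposited probe intensities, linear and 1-colour, with array medians of 0.972 to 0.987; per the labels, RNA was column-purified with DNase and labelled by the CodeLink protocol. No source used here states the scanner software, background correction or normalization. Symbols came from the platform annotation (21615 of 35587 probes with 1 symbol, 681 with several, 13291 not listed).

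Intensities were set to log2, after those at or under 0 (151 to 711 per array) took the value of the 1st percentile of positive intensities on that array. Smooth surfaces over array row and signal level, and row and column (mgcv 1.9.3, 2 rounds), were subtracted from each array, which was then centred on its median. Probes with a mean at or above the 30th percentile were fitted with limma 3.58.1 in R 4.3.3 (two-sided, Benjamini-Hochberg adjustment over all tested probes), checked on simulated data. Genes named were a fixed set of core chaperones, every member at unadjusted p under 0.05, the highest and lowest of each role, genes whose probes disagree, and per related list the smallest p. A few more (Hspa4, Hspa13, Cct2, Cct7, Cct5, Cct3, Dnajb4, Dnajc1, Dnajc4, Dnajc10, Bag6, Hspbp1, Manf, Stip1, Cdc37, Fkbp4, Ahsa1, Ptges3, Ppid, Stub1 and Odf1) were named after their values were seen. Members and lists were chosen with earlier results of these data known. The closing section gives alternatives. Intervals are 95%, and the number of arrays limits the precision. Of replicate numbers shared by control and Pb, the deviations from group means correlated at 0.06 and 0.01, a check that 2 Pb arrays cannot make decisive; no label says that the numbers pair animals.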

Additional observations from a re-analysis of the deposited data

How the results depend on the processing

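No member probe was called under any alternative tried except leaving out Pb replicate 1 (8 called). Probes called overall were 0 without position correction, without the filter on dim probes and with all 6 arrays as deposited, and 11 with array weights, against 18. Member probes at an unadjusted p under 0.05 were 16 without correction, 10 with a surface that ignores level, 1 without the filter, 1 with array weights and 8 with 6 arrays as deposited, against 5. The members' median difference became -0.123 with the level-free surface and -0.401 with 6 arrays; the medians of all probes were then -0.177 and -0.393. Member probes above all controls were 20, 6 and 5 without correction, with the level-free surface and with scaling to the 75th percentile, against 10. Those below were 21, 25 and 13 without correction, with the level-free surface and with 6 arrays, against 7. Leaving out 1 array at a time gave 4 to 2791 probes called, 0 to 8 members called, 1 to 31 members at an unadjusted p under 0.05, a median of -0.047 to 0.188, 15 to 47 members above and 10 to 35 below all controls, and 0 to 9 calls in the related lists. With the replicate block 8 probes were called and no member; no label says that the shared numbers pair the samples. Of 706 comparisons of named probes, 5 became calls, all without Pb replicate 1, when the controls alone give the spread (Bag1, Bag3, Tcp1, Dnaja3 and Dnajc16), and 66 uncalled differences changed sign. No centring on the array median was an alternative chosen after seeing the data. The causes were not tested.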
